A study of Mus musculus with 8 samples.

Results

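The genes described here encode the interleukin-1 (IL-1) family cytokines IL-1α, IL-1β and IL-18, the IL-1 receptor antagonist, and the core of the inflammasome, the cytosolic complex that matures IL-1β and IL-18. The 10 genes were listed by name and are 10 of the 55573 genes in the count table: the ligands Il1a, Il1b and Il18, the receptor antagonist Il1rn, the sensors Nlrp3 and Nlrp1b, the adaptor Pycard (ASC), the inflammatory caspases Casp1 and Casp4, and the pore-forming Gsdmd. They were measured by RNA-seq in sorted brain microglia of mice at postnatal day 60, in 4 libraries labelled SmadKO (Smad2/3 fl/fl;Cx3cr1Cre, in which Cre driven from the Cx3cr1 locus recombines floxed Smad2 and Smad3 in microglia and related macrophages) and in 4 libraries labelled WT. Smad2 and Smad3 carry the canonical branch of TGFβ signalling. Per the Methods, control animals in the study's crosses were in general Cre carriers heterozygous for the floxed allele, so WT here is the label rather than a statement that these mice lack Cre. Per the Methods, biological replicates in the study came from different mice, whereas the labels number the libraries without naming animals.

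In the usual scheme, priming through NF-κB raises Il1b and Nlrp3 transcripts, and a second signal causes a sensor such as NLRP3 to gather ASC and caspase-1. Caspase-1 then cleaves pro-IL-1β, pro-IL-18 and gasdermin D, whose freed fragment forms membrane pores. Murine caspase-11, encoded by Casp4, cleaves gasdermin D in response to cytosolic lipopolysaccharide. IL-1α is active as a precursor, IL-1Ra blocks the IL-1 receptor, and the binding protein IL-18BP sequesters IL-18. Microglia are a main source of IL-1 in the brain. Transcript levels say nothing of cleavage or release, which were not measured.

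Library depth was 35639502 to 41946479 counts. Smad3 was lower in SmadKO, at 9.61 to 35.1 CPM (counts scaled to library totals adjusted by TMM) against 39.5 to 56.9 in WT, with a log2 fold change of -1.33 ± 0.36 (SE, edgeR quasi-likelihood test, adjusted p = 0.0429). Its call was lost in 8 of 15 alternatives, among them without any single library other than SmadKO replicate 3 (adjusted p up to 0.11). Smad2 was 42.7 to 75.9 CPM against 62.7 to 92.4 and did not pass the test (log2 fold change -0.34 ± 0.22, edgeR adjusted p = 0.34). All 8 genes on a list of microglial markers were expressed in every library and were lower in SmadKO, with a summed level of 5266 to 7619 CPM against 30988 to 47336 CPM in WT. Of 7 border-associated macrophage markers, Mrc1, Pf4, Ms4a7, Cd163 and Cbr2 were higher, and the sum was 1632 to 2537 CPM against 52.8 to 99.1. Xist was at 99.5 to 183 CPM in the WT libraries and at no more than 0.562 CPM in the SmadKO libraries, whereas Ddx3y was at 9.74 to 59.8 CPM in SmadKO and no more than 0.224 CPM in WT. Genotype and sex cannot be told apart in any comparison below. In sorted bulk RNA, fewer cells of a type and less RNA per cell cannot be told apart either.

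Upstream sequences of Il1b, Il1a and Pycard are shown first, so that the pair of neighbouring IL-1 genes on chromosome 2, whose fold changes had opposite signs, can be compared with the adaptor gene. RefSeq windows (GRCm38.p6) were found for 9 of the 10 genes, all but Gsdmd. Each line gives the 250 bases before the transcription start, written 5′ to 3′ on the strand of the gene, with motif matches in capitals.
Il1b, minus strand, chr2:129371140-129371389: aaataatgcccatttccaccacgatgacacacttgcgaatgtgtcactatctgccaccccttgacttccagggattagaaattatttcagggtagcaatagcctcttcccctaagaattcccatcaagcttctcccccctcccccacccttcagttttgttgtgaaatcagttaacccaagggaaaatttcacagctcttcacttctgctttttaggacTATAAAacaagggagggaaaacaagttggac
Il1a, minus strand, chr2:129309973-129310222: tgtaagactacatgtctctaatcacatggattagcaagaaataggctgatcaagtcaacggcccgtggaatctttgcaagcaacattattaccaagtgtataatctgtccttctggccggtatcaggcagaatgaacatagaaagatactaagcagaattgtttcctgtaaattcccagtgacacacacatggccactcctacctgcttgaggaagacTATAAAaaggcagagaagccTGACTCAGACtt
Pycard, minus strand, chr7:127993868-127994117: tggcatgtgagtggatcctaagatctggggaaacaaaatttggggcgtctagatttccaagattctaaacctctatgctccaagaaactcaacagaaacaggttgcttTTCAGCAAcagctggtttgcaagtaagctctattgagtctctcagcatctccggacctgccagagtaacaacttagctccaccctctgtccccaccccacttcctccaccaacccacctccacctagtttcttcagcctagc
The motifs searched on both strands were the SMAD element CAGAC, the AP-1 element TGANTCA, the C/EBP element TTGCNNAA, the box TATAAA and the NF-κB consensus. The capitals in Il1b and the first capitals in Il1a mark TATAAA, which began 31 and 32 bases before the start, respectively. TATAAA was present in 12.4% of all 32851 windows of this length. At the 3′ end of the Il1a window, TGACTCA and CAGAC overlapped by 2 bases, and AP-1 and SMAD matches occurred in 6.75% and 42.2% of all windows. The Pycard window held 1 C/EBP match on the opposite strand, 142 to 135 bases before the start, a motif present in 9.56% of windows. The NF-κB consensus was present in 7.25% of windows. Of the 14 windows of these genes, 3 held it, those of Casp4 and only 1 of Nlrp3. The Pycard window also lies within an exon of Gm45205, a gene on the opposite strand.

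All 10 genes passed the filter on low counts (at least 10 counts in at least 4 libraries). Il1b was higher in SmadKO, Pycard and Gsdmd were lower, and the other 7 did not pass the test at an adjusted p of 0.05. Thus 1 of 10 was called higher, where 4.36% of the 20153 tested genes were, and 2 of 10 were called lower, where 7.97% were. The values of 4 genes (Il1b, Nlrp1b, Pycard and Gsdmd) did not overlap between the groups, against 22.1% of all tested genes. The log2 fold change was negative for 8 of the 10 and for 9949 of the 20153 tested genes. Its median was -0.55 over the 10, beside 0.01 over all tested genes.

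**Figure D1:**
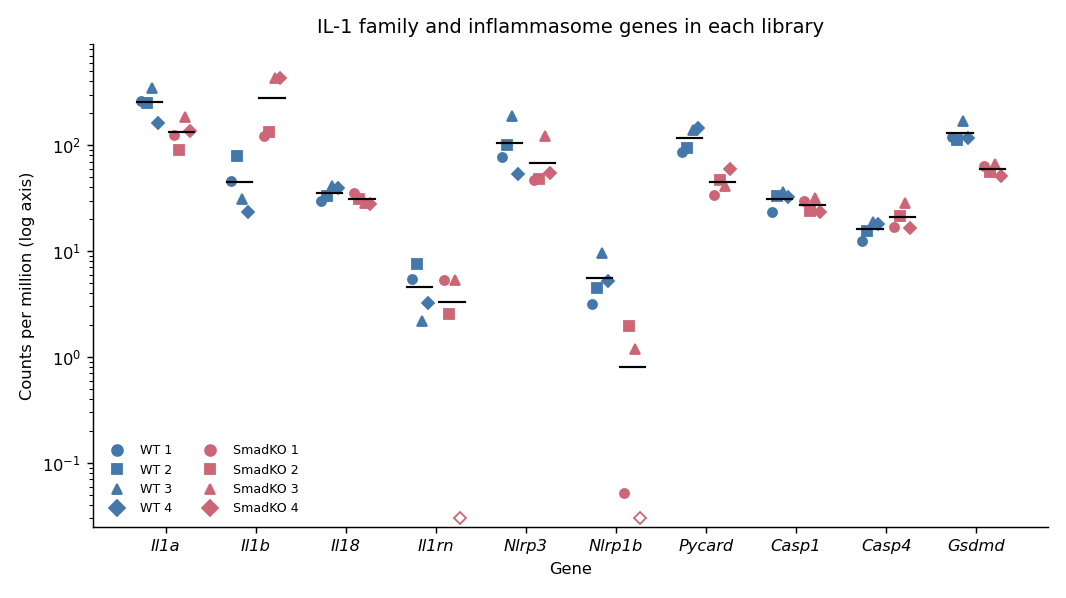
CPM (log axis) of each gene in the 4 WT (blue) and 4 SmadKO (red) libraries, with symbols for the replicate number and black bars for group means; open symbols at the bottom mark values of 0. The SmadKO symbols lie above all WT symbols for Il1b and below all of them for Nlrp1b, Pycard and Gsdmd.

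Among the ligands, Il1b, which encodes the precursor of IL-1β, was the only gene called. It was at 45.6, 78.4, 30.9 and 23.2 CPM in WT replicates 1 to 4, and at 122, 134, 431 and 427 CPM in SmadKO replicates 1 to 4. Every SmadKO library was above every WT library, and the SmadKO libraries fell into a lower and a higher pair. The group means were 44.5 ± 24.4 and 278 ± 174 CPM (SD, n = 4 each), a 6.25-fold difference (log2 fold change 2.64 ± 0.55, edgeR adjusted p = 0.0147). The call was lost without WT replicate 3, although the fold change was 2.5 on the log2 scale (edgeR adjusted p = 0.0516). It was also lost with replicate number as a block in the fit, at a log2 fold change of 2.55 (edgeR adjusted p = 0.0669). Across all alternatives the adjusted p ran from 9.71e-06 to 0.0669. An antisense neighbour, Il1bos, overlaps 25 bases of the Il1b exons (1.31% of their length) and was at no more than 3.29 CPM in any library.

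Neutrophils and monocytes also express Il1b, and their markers are given beside it. The summed level of 9 neutrophil markers was 562 to 2643 CPM in WT and 271 to 834 in SmadKO. Of these markers, Camp and Ltf, which encode granule proteins, were lower (log2 fold changes -1.91 ± 0.47 and -2.45 ± 0.63, edgeR adjusted p = 0.0299 and 0.0354), and none was higher. The Camp call was lost without any of WT replicates 1 to 3 or SmadKO replicates 3 and 4, and that of Ltf without any library but WT replicate 4, with adjusted p of up to 0.0824 and 0.0883. The Ltf change was -1.67 without WT replicate 2. S100a9, which had the highest mean CPM of the list over the 8 libraries, was at 176 to 721 CPM in WT and 89.2 to 292 in SmadKO. The sum of 5 monocyte markers was 181 to 413 CPM in WT and 122 to 263 in SmadKO, and none of the 5 passed the test. Ly6c2, which had the highest mean CPM of these over the 8 libraries, was at 47.2 to 114 CPM in WT and 44.1 to 117 in SmadKO. Within WT, the order of the libraries by Il1b was that by neutrophil markers, the highest of each being in replicate 2 and the lowest in replicate 4. The monocyte markers in WT had another order, with the lowest sum in replicate 3 (181 CPM). Within SmadKO, the order by Il1b was that by monocyte markers, at 122, 182, 263 and 253 CPM in replicates 1 to 4. The neutrophil markers in SmadKO had another order, at 271, 788, 779 and 834 CPM. These orders rest on 4 libraries in each group and were not tested. The border-associated macrophage sums were apart between groups, and the pair of SmadKO libraries with the higher Il1b also had the higher sums, 2151 and 2537 CPM, against 1632 and 1774. Pf4, which had the highest mean CPM of that list over the 8 libraries but not within WT, was at 8.64 to 15.4 CPM in WT and 652 to 1366 in SmadKO. The part of these cells in the Il1b difference was not tested. For T and NK cell markers the sum was 15.7 to 47.5 CPM in WT and 67.8 to 161 in SmadKO. Of their 6 genes, Cd3e, Trbc2 and Nkg7 were higher, and Nkg7 had the highest mean CPM, at 7.22 to 19.2 CPM in WT and 23.2 to 74.9 in SmadKO. The calls of Cd3e and Nkg7 were lost without WT replicate 2 (edgeR adjusted p = 0.0573) and without SmadKO replicate 2 (0.0504), respectively. Handling of tissue can raise some transcripts, and 13 such genes were listed, among them immediate-early genes and the heat shock genes Hspa1a and Hspa1b. They summed to 41172 to 93669 CPM in WT and 32831 to 65028 in SmadKO. Fos had the highest mean CPM of them. Only Egr1 passed the test, and it was lower (log2 fold change -1.8 ± 0.37, edgeR adjusted p = 0.0133). Neuron and B cell markers had overlapping sums and no calls, led by Snap25 and Cd79b, where the gene with the highest mean CPM is named for each list. The sum of 4 endothelial markers was 9.46 to 14.2 CPM in WT and 1.82 to 6.49 in SmadKO without overlap. None of the 2 that could be tested was called, and Pecam1, the highest of them, was at 5.12 to 13.3 CPM in WT and 0.605 to 5.01 in SmadKO (edgeR adjusted p = 0.0664). Of 4 astrocyte markers only Slc1a3, with the highest mean CPM, was called, and it was lower, at 25.8 to 170 CPM against 1084 to 1758. Gfap, Aqp4 and Gja1 were not called, with log2 fold changes of 0.65, 0.73 and -0.33.

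**Figure D2:**
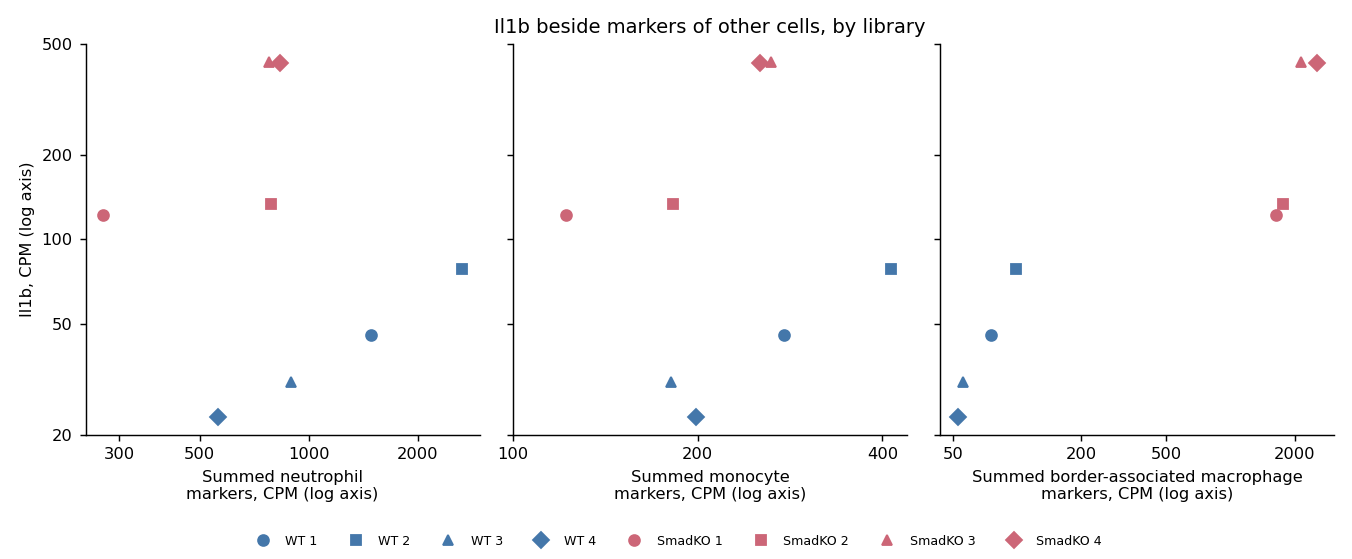
Il1b (vertical, CPM, log axis) against the summed CPM (log axis) of neutrophil, monocyte and border-associated macrophage markers, with 1 symbol per library. The SmadKO libraries lie above all WT libraries for Il1b. Their neutrophil and monocyte sums, 271 to 834 and 122 to 263 CPM, overlap those of WT, and the macrophage sums separate the groups.

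Il1a, the neighbour of Il1b on chromosome 2, had a fold change of the opposite sign. It was at 260, 248, 349 and 163 CPM in WT and 125, 90.1, 183 and 135 CPM in SmadKO. The highest SmadKO library (replicate 3) exceeded the lowest WT library (replicate 4), and the other SmadKO libraries were below all WT libraries. The log2 fold change of -0.94 ± 0.27 narrowly missed the threshold (edgeR adjusted p = 0.0563). It passed under 5 of 15 alternatives, with an adjusted p between 0.0134 (DESeq2) and 0.142 over all 15. Among the 5 were the fits without WT replicate 4 (0.0333), without SmadKO replicate 3 (0.0412) and with replicate number as a block (0.0436). Of the Il1a exons, 11.2% are overlapped by Gm14023 (222 bases), so reads there could not be assigned uniquely without strand. Gm14023 itself was at 22.7 to 54.4 CPM in WT and 15.2 to 21 in SmadKO (log2 fold change -1.05, edgeR adjusted p = 0.0357).

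Il18, the remaining ligand, was at 29.4, 32.8, 40.9 and 39.4 CPM in WT and 35.2, 31.2, 28.7 and 27.9 CPM in SmadKO. The ranges overlapped, and the log2 fold change was -0.21 ± 0.17 (edgeR adjusted p = 0.454). Il1rn, which encodes the antagonist of the IL-1 receptor, was scarce in each group, at 5.48, 7.63, 2.18 and 3.23 CPM in WT and 5.35, 2.55 and 5.38 CPM in SmadKO replicates 1 to 3. No count of Il1rn was found in SmadKO replicate 4, which allows a level of up to 0.0827 CPM for counting error alone. The fold change was poorly determined (log2 fold change -0.48 ± 1.06, edgeR adjusted p = 0.819).

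Because levels of different genes can be compared only per length, CPM was divided by the length of the merged exons. In WT, Il1a was the most abundant of the 10 genes at 129 ± 38.5 CPM per kilobase (SD, n = 4), and Il1b ranked sixth at 23.3 ± 12.8. In SmadKO, Il1b ranked first at 146 ± 91.1 CPM per kilobase and Il1a second at 67.6 ± 19.4, and the ranges of this pair overlapped. Within libraries, the ratio of Il1b to Il1a per kilobase was 0.181, 0.327, 0.0916 and 0.147 in WT replicates 1 to 4, and 1.01, 1.53, 2.44 and 3.26 in SmadKO replicates 1 to 4. Thus Il1b was below Il1a in all WT libraries and above it in all SmadKO libraries, although in SmadKO replicate 1 the levels were nearly equal. With the principal transcript as length, the SmadKO ratio ran from 1.42 to 4.58 and the WT ratio from 0.129 to 0.46.

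The remaining genes were ordered in the same way. In WT, Gsdmd came second at 54.6 ± 11.5 CPM per kilobase, apart from Il1a above it and Il18 below it. With principal transcripts as length, Gsdmd reached 95.2 in WT and overlapped Il1a, whose lowest value was 82.6. Il18, Pycard, Nlrp3, Il1b and Casp1 followed at 34.5 to 20.8, and each overlapped the next. Casp4 at 4.38 ± 0.77 was separate from its neighbours, and Nlrp1b (0.888 ± 0.44) and Il1rn (0.836 ± 0.439) overlapped at the bottom. In SmadKO, Il18 ranked after Il1a at 29.8 ± 3.19 and overlapped Gsdmd at 24.9 ± 2.77. Casp1, Nlrp3 and Pycard followed at 18.2, 16.7 and 11.9 CPM per kilobase, each overlapping the next. Casp4 at 5.63 ± 1.52 was apart from Pycard above it, an order that turned with principal transcripts as length (14.6 for Casp4 and 11.9 for Pycard). Il1rn and Nlrp1b overlapped at the bottom at 0.6 ± 0.466 and 0.127 ± 0.15.

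**Figure D3:**
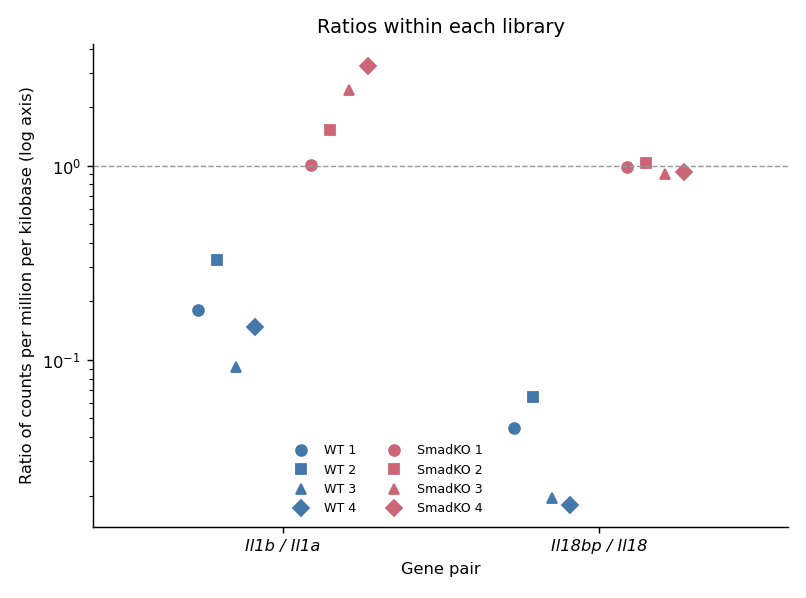
Ratio of CPM per kilobase (log axis) of Il1b to Il1a and of Il18bp to Il18 within each library, with a dashed line at 1. The WT ratios are no higher than 0.327 and 0.0641, and the SmadKO ratios lie between 1.01 and 3.26 and between 0.905 and 1.03.

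The sensors were not called. Nlrp3, whose product senses membrane damage and ion flux, was at 76.7, 99.8, 188 and 53.4 CPM in WT and 47.0, 47.5, 123 and 54.2 CPM in SmadKO. Replicate 3 was the highest of each group, the ranges overlapped, and the log2 fold change was -0.62 ± 0.44 (edgeR adjusted p = 0.401). Nlrp1b, which encodes a sensor of pathogen protease activity, was at 3.15, 4.50, 9.57 and 5.16 CPM in WT and 0.0519, 1.94, 1.2 and 0 CPM in SmadKO. The groups did not overlap, with 829 counts over the WT libraries and 135 over the SmadKO libraries, but the log2 fold change of -2.8 ± 1.2 did not pass the test (edgeR adjusted p = 0.161). Without SmadKO replicate 2 it was -3.74 (edgeR adjusted p = 0.145), and the adjusted p ran from 0.0589 to 0.34 over all alternatives. Nlrp1b shares 1.45% of its 50-base words with its paralog Nlrp1a and the pseudogene Nlrp1c-ps, so a small part of its reads is uncertain.

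Pycard, which encodes the ASC adaptor linking sensor to caspase, was lower. It was at 85.9, 93.9, 139 and 146 CPM in WT and 33.7, 46.4, 41.0 and 59.2 CPM in SmadKO. All SmadKO libraries were below all WT libraries. The group means were 116 ± 30.6 and 45.0 ± 10.8 CPM (SD, n = 4 each), a 2.58-fold difference (log2 fold change -1.37 ± 0.24, edgeR adjusted p = 0.00688), which was called under every one of 15 alternatives. Gm45205 on the opposite strand overlaps 485 bases of the Pycard exons (12.8%) and was at 3.63 to 5.60 CPM in WT and 0 to 1.49 in SmadKO.

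The caspases showed no call. Casp1, whose protease matures IL-1β and IL-18, was at 23.3, 32.8, 36.1 and 32.6 CPM in WT and 30.0, 24.0, 31.8 and 23.2 CPM in SmadKO, and the ranges overlapped almost fully. Its log2 fold change was -0.20 ± 0.19 (edgeR adjusted p = 0.559). Casp4 was at 12.6, 15.5, 19.0 and 17.9 CPM in WT and 16.7, 21.6, 28.6 and 16.7 CPM in SmadKO, with overlap and a log2 fold change of 0.36 ± 0.24 (edgeR adjusted p = 0.358). The largest Casp4 value was again in SmadKO replicate 3, the library with the highest value of its group for 7 of the 10 genes, as was WT replicate 3 in its own group. Replicate 3 also had the highest sum of the listed handling-related transcripts in each group, at 93669 CPM in WT and 65028 in SmadKO. The part of handling in these values was not tested.

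Gsdmd, which encodes the executor of pyroptotic pore formation, was lower. It was at 120, 111, 171 and 117 CPM in WT and 63.0, 55.8, 66.0 and 51.6 CPM in SmadKO. No SmadKO library reached the lowest WT library, and the SmadKO values lay close together. The group means were 130 ± 27.4 and 59.1 ± 6.6 CPM (SD, n = 4 each), a 2.20-fold difference (log2 fold change -1.14 ± 0.18, edgeR adjusted p = 0.00361), called under every one of 15 alternatives. No other annotated gene overlaps its exons.

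**Figure D4:**
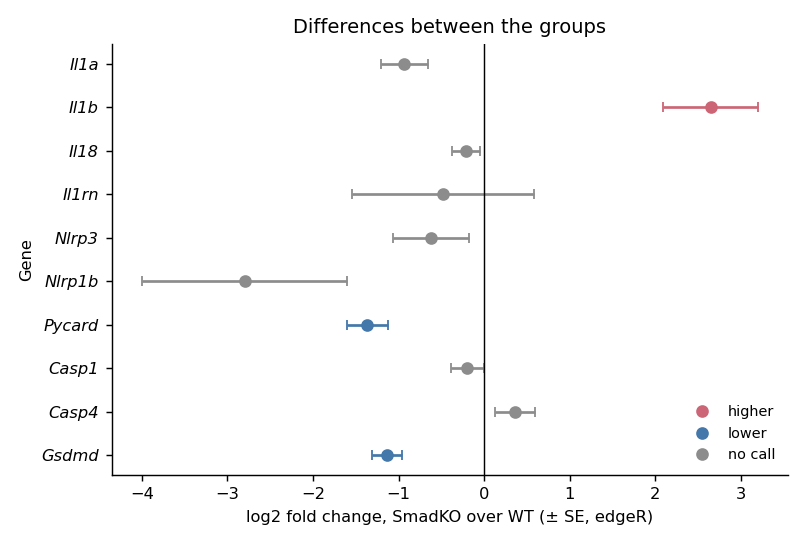
Log2 fold change of SmadKO over WT (± SE from the edgeR fit) for each gene. Il1b is the only gene called higher at 2.64, Pycard and Gsdmd are called lower at -1.37 and -1.14, and the widest errors belong to the low-count Nlrp1b and Il1rn.

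The wider pathway held 58 other genes, of which 51 were tested, 5 were called higher and 8 lower, where 4.36% and 7.97% of all tested genes were. Their median log2 fold change was -0.16. No ligand outside the 3 above was called: Il33 was at 2.15 to 11.6 CPM in WT and 4.82 to 12.3 in SmadKO, and Il36a, Il36b and Il1f10 had no counts in any library, as did the antagonist Il36rn.

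None of the 6 receptor genes was called. Il1r1, the signalling receptor of IL-1, was at 1.37 to 11.1 CPM in WT and 6.13 to 10.3 in SmadKO (log2 fold change 0.49 ± 0.60, edgeR adjusted p = 0.643). Its accessory chain Il1rap was at 4.44 to 7.86 CPM in WT and 2.15 to 13.3 in SmadKO (edgeR adjusted p = 0.764). Il18r1, the IL-18 receptor, stayed at or under 0.861 CPM in WT and ran from 0.0279 to 3.59 in SmadKO (edgeR adjusted p = 0.476). The decoy receptor gene Il1r2 was at 5.06 to 15.1 CPM in WT and 2.39 to 10.8 in SmadKO (edgeR adjusted p = 0.756).

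By contrast, Il18bp, whose product binds and neutralises IL-18, was strongly higher. It was at 3.83, 6.17, 2.32 and 2.07 CPM in WT and 102, 94.0, 76.2 and 76.0 CPM in SmadKO. The lowest SmadKO value was far above the highest WT value, a 24.1-fold difference (log2 fold change 4.59 ± 0.38, edgeR adjusted p = 0.000122). Per kilobase, the ratio of Il18bp to Il18 was 0.0443, 0.0641, 0.0194 and 0.0179 in WT and 0.985, 1.03, 0.905 and 0.927 in SmadKO. With the principal transcript as length, the ratio was 0.0284 to 0.102 in WT and 1.43 to 1.63 in SmadKO. The transcript of the inhibitor was thus below that of its ligand in all WT libraries under each length, and in SmadKO it was near its level by merged exons and above it by principal transcripts.

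Downstream of the receptors, Irak3, which encodes a negative regulator of receptor signalling, was at 2.74 to 5.88 CPM in WT and 7.21 to 23.1 in SmadKO (log2 fold change 1.68 ± 0.43, edgeR adjusted p = 0.0356). That call was lost in 7 of 15 alternatives, with adjusted p from 0.00165 to 0.0998. Leaving out any single WT library, or SmadKO replicate 1 or 3, was enough. Irak2, a kinase of the same complex, was lower at 47.3 to 68.8 CPM against 86.7 to 124 (log2 fold change -0.85 ± 0.18, edgeR adjusted p = 0.0144). Myd88, the shared adaptor, was at 87.9 to 126 CPM in WT and 61.8 to 80.9 in SmadKO without overlap but missed the threshold (edgeR adjusted p = 0.0527).

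Of the 11 other sensor genes 8 were tested, and these held the largest change in the pathway. Nlrc4, the partner of NAIP proteins that bind flagellin and secretion-system proteins, was at 1.29, 0.026, 0.224 and 0.0538 CPM in WT and 23.5, 14.0, 34.8 and 31.6 CPM in SmadKO. It was near the counting limit in 3 WT libraries (61 counts over all 4, against 3945 in SmadKO), so its log2 fold change of 6.0 ± 1.0 (edgeR adjusted p = 0.00494) has a wide error. Without WT replicate 1 the change was 7.98. Among its ligand-binding NAIP partners, Naip2 was lower, at 8.48 to 20.4 CPM against 30.2 to 34.3 (log2 fold change -1.24 ± 0.26, edgeR adjusted p = 0.0151). Naip1, Naip5 and Naip6 had log2 fold changes of -1.59, -1.06 and -1.70 but missed the threshold (edgeR adjusted p = 0.0612, 0.0553 and 0.0521). The ranges of Naip6 overlapped between the groups. Whether the Naip genes share reads was not checked. Nlrp1a, the paralog of Nlrp1b, fell as well, from 5.94 to 13.7 CPM in WT to 0.276 to 1.77 in SmadKO (log2 fold change -3.63 ± 0.62, edgeR adjusted p = 0.00586). Without SmadKO replicate 1 it was -4.3.

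Among the inflammasome regulators, 2 of 10 were lower and none was higher. Nek7, whose kinase binds NLRP3 for its assembly, was at 92.8 to 143 CPM in WT and 37.9 to 60.8 in SmadKO (log2 fold change -1.41 ± 0.21, edgeR adjusted p = 0.00269). Txnip, a thioredoxin-binding protein linked to NLRP3, was at 744 to 1972 CPM in WT and 272 to 436 in SmadKO (log2 fold change -1.83 ± 0.31, edgeR adjusted p = 0.00564). Of the other caspase and rupture genes, Casp8, an initiator caspase of apoptosis, was lower at 59.3 to 84.9 CPM against 115 to 183 (log2 fold change -1.0 ± 0.19, edgeR adjusted p = 0.0104). Ninj1, which carries out plasma membrane rupture after pore formation, was higher at 224 to 285 CPM against 132 to 183 (log2 fold change 0.66 ± 0.15, edgeR adjusted p = 0.0242). The Ninj1 call was lost in 5 of 15 alternatives, with an adjusted p of up to 0.0688, including without WT replicate 1 or 3 and without SmadKO replicate 2 or 3.

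Of 9 priming genes, Nfkb1 and Rela, which encode the p105 precursor of p50 and the p65 subunit of NF-κB, were lower. Nfkb1 was at 136 to 247 CPM in WT and 51.8 to 60.1 in SmadKO (log2 fold change -1.54 ± 0.22, edgeR adjusted p = 0.00229). Rela was at 198 to 306 CPM in WT and 91.3 to 172 in SmadKO (log2 fold change -0.85 ± 0.23, edgeR adjusted p = 0.0418). The Rela call was lost in 8 of 15 alternatives, with an adjusted p of up to 0.109, including without any of WT replicates 1 to 3 or SmadKO replicates 2 to 4. Bcl3, a nuclear IκB protein, was higher at 14.6 to 23.2 CPM against 5.23 to 10.2 (log2 fold change 1.51 ± 0.28, edgeR adjusted p = 0.00933). The feedback inhibitor Nfkbia, a direct NF-κB target, was at 736 to 1566 CPM in WT and 1358 to 2463 in SmadKO, with overlap (log2 fold change 0.67 ± 0.28, edgeR adjusted p = 0.155). Log2 fold changes of the other uncalled genes were -0.62 for Rel, -0.32 for Nfkb2, -0.28 for Tnfaip3, -0.09 for Relb and 0.06 for Nfkbiz. Nfkbia and these genes were not picked by the rule for named genes and were chosen after their values were seen. The same holds for Myd88, Il33, Naip1, Naip5 and Naip6.

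**Figure D5:**
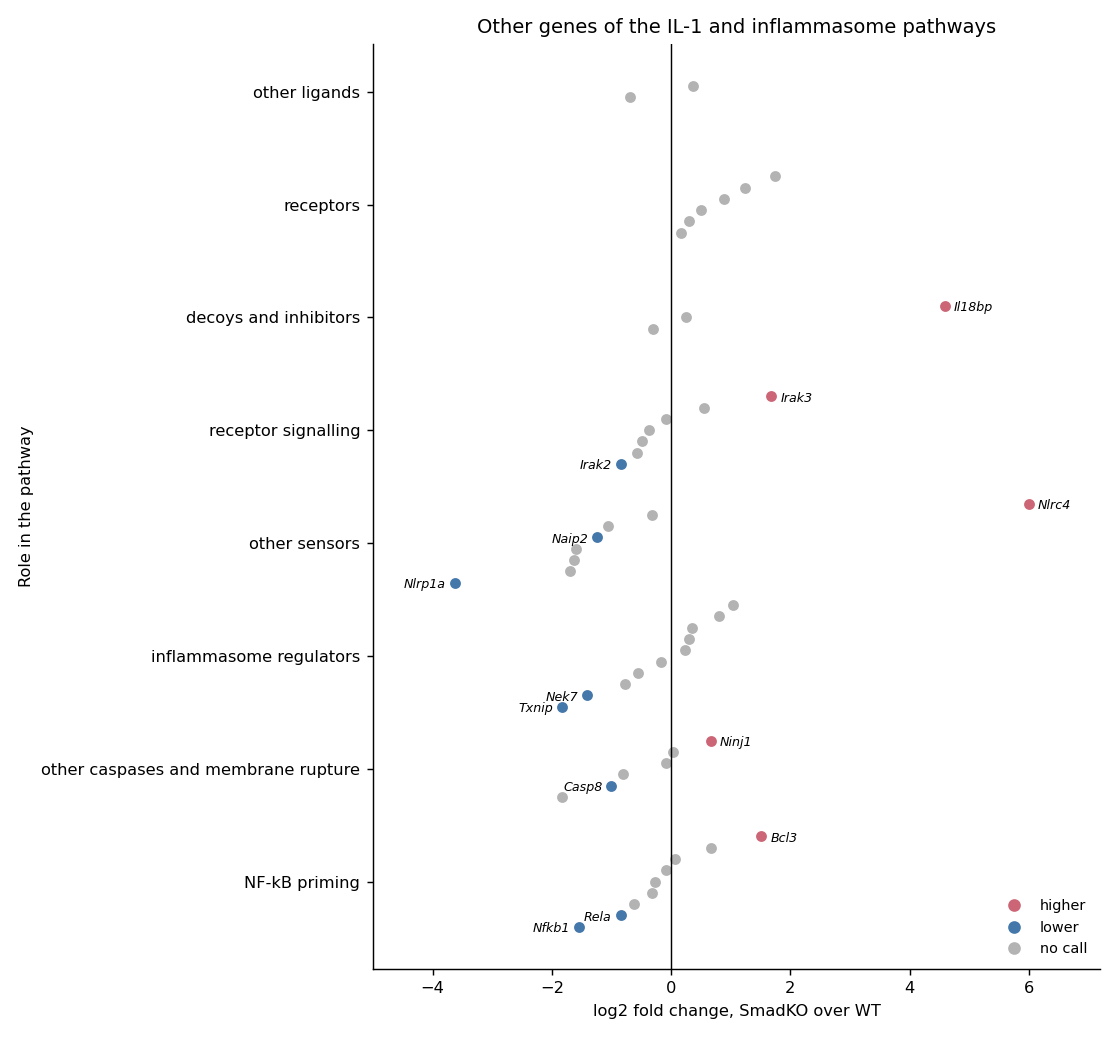
Log2 fold change of SmadKO over WT of the 51 tested pathway genes outside the 10, in rows by role, with red for genes called higher, blue for lower and grey for no call. The 5 called higher reach 6.0 for Nlrc4 and 4.59 for Il18bp, and the 8 called lower reach -3.63 for Nlrp1a.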

How the data were processed

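RNA was sequenced from sorted microglia in 4 WT and 4 SmadKO libraries. Per the labels, libraries were Nextera XT, single-end and unstranded, whereas the Methods describe unstranded paired-end NEBNext libraries of polyA RNA. The Methods cite a different deposit for these mutants, so the match to that experiment rests on genotype and cell type. Rsubread alignment to mm10 and featureCounts gave the raw counts per gene that the authors deposited; a second deposited table holds their DESeq2 1.28 comparison (fold changes and p-values) and was not used.

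From the deposited counts, genes reaching 10 counts in 4 or more of the 8 libraries (20153 of 55573) were scaled by TMM and tested with edgeR 4.0.16 (glmQLFit, glmQLFTest; R 4.3.3), with Benjamini-Hochberg adjustment over all tested genes and a threshold of 0.05. The code was tested on simulated counts. CPM values use TMM-scaled totals. Alternatives included DESeq2 1.42.0, other scalings and filters, a replicate block and leaving out each library. Coordinates, lengths and overlaps come from GENCODE M21 (GRCm38), promoters from RefSeq. Floors cover counting error only.

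The genes and lists were chosen with earlier results of these data known. Named were the 10 genes, Smad2 and Smad3, up to 4 called pathway genes per role with the largest change, Il1r1, Il1rap, Il1r2, Il18bp and Il18r1, and for marker lists the gene with the highest mean CPM over all libraries (not per length) and those called or at 0. The result of 1 further marker list is not reported here.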

Additional observations from a re-analysis of the deposited data

Results flagged for a closer look

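In 42 groups of 4 libraries, formed by the 10 genes and 11 marker sums in WT and SmadKO, a single library stood apart by Dixon's test in 4, where chance gives about 1 in 20. Nlrp3 in SmadKO replicate 3 was at 123 CPM, and the next highest library was at 54.2. Gsdmd in WT replicate 3 was at 171 CPM, and the next highest was at 120. The summed neutrophil markers in SmadKO replicate 1 were at 271 CPM, below the next lowest library at 779. The summed endothelial cell markers in that library were at 6.49 CPM, above the next highest at 2.62.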

How the results depend on the processing

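The calls of Pycard and Gsdmd held under all 15 alternatives. With the replicate block, 0 genes of the 10 were called higher, since Il1b was lost (log2 fold change 2.55, edgeR adjusted p = 0.0669), and 3 were called lower, with Il1a gained (edgeR adjusted p = 0.0436). Deviations of same-numbered samples from their group means had correlations of 0.166, 0.0183, 0.144 and 0.114, the lowest for number 2. The labels do not say that the numbers pair the samples, so the main fit had no block. Whether same-numbered samples were handled together was not tested. Control replicates 1, 3 and 4 correlated best with their own number and replicate 2 with SmadKO replicate 1. DESeq2 called 14 pathway genes lower, and 2079 genes higher and 2659 lower over all genes.

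Leaving out 1 library gave 0 to 1 of the 10 genes higher and 2 to 3 lower, 3 to 5 pathway genes higher and 7 to 9 lower, and 525 to 1024 genes higher and 1005 to 1587 lower over all genes. The log2 fold change of Il1rap then ran from -0.15 (without SmadKO replicate 1) to 0.60, and that of Il1r2 from -0.54 to 0.042 (without WT replicate 2). The cause of these changes was not tested. Scaling by library totals moved the median log2 fold change of all genes from 0.01 to 0.13. Under that scaling 44.2% of calls were higher, against 35.3% with TMM. Lengths from principal transcripts, added after seeing the data, kept Il1a first in WT and Il1b first in SmadKO, moved Il1b in WT from rank 6 to 4, and put Casp4 above Pycard in SmadKO.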
